A study of Mus musculus with 2 samples.

Results

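The 7 genes described here code for the ligands and receptor parts of calcitonin gene-related peptide (CGRP) and adrenomedullin: Calca, Calcb, Adm, Calcrl, Ramp1, Ramp2 and Ramp3. They were taken by symbol, not by level, and each matched 1 of the 31053 genes counted in both libraries. The cells come from dorsal root ganglia (DRGs) of Swiss mice aged 2 weeks, dissociated with enzymes and kept 3 days in culture before trypsin detached them. The methods describe male and female animals and laminin-coated dishes. All cells belong to this single condition, Cell_culture, so no control, injury or uncultured tissue stands beside them and the comparisons are between cell classes. Cell_culture consists of 2 libraries, A and B, made with the 10x Genomics Chromium 3' kit (version 3) on the same chip.

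CGRP is a neuropeptide that small and medium sensory neurons of the DRG release from their endings, where it widens blood vessels and takes part in pain and migraine. Its receptor is made of the G protein-coupled receptor CALCRL and the small membrane protein RAMP1, while CALCRL with RAMP2 or RAMP3 forms receptors for adrenomedullin, a vasodilator peptide made by vessels and connective tissue. RAMP proteins carry CALCRL to the cell surface, and the complete receptors raise cyclic AMP through Gs.

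Calca and Calcb are the genes of α-CGRP and β-CGRP. In the GENCODE M21 annotation of GRCm38, Calca lies on chromosome 7 from 114631478 to 114636357 on the minus strand and Calcb on chromosome 7 from 114718643 to 114723365 on the plus strand. The stretches that code for the mature peptides are shown because these are the parts in which the ligands are almost the same. They were read from the GENCODE transcripts 5′ to 3′, and capitals mark the bases at which they differ.
Calca CGRP stretch: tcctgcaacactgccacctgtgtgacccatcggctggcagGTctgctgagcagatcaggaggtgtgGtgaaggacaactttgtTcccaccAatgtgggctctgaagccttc
Calcb CGRP stretch: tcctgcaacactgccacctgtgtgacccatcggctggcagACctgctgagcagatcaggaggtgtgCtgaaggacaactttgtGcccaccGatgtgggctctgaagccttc
The stretches are 111 bases long and differ at 5 bases, which change 3 of the 37 codons to another amino acid. Elsewhere the transcripts are less alike. Of the 31-base words in the last 500 bases of the coding transcripts, the part that a 3' kit reads, 20 were shared, which is 1.34% of the Calca words and 1.77% of the Calcb words, so few reads could be split between the genes. Of 6 coding transcripts of Calca in this annotation, 1 carried the CGRP stretch. The gene also makes calcitonin by alternative splicing, and the count of its row adds up all of its transcripts.

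The other members lie elsewhere in the genome. Calcrl lies on chromosome 2 (84330626 to 84425411, minus strand), Adm on chromosome 7 (110627661 to 110629820, plus strand), Ramp1 on chromosome 1 (91179822 to 91225196, plus strand), Ramp2 on chromosome 11 (101246028 to 101259546, plus strand) and Ramp3 on chromosome 11 (6658521 to 6677475, plus strand). The annotated span of Ramp2 overlaps that of Vps25 on the same strand, and reads that match both genes cannot be given to either alone. Vps25 was counted at no more than 3.71 CPM in any class and library. This count does not show how many reads matched both genes.

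After removal of cells with fewer than 200 genes or more than 10% mitochondrial UMIs (unique molecular identifiers, the tags by which captured RNA molecules are counted), 10730 of 10948 barcodes were kept. They fell into 811 neurons (437 in A and 374 in B), 390 fibroblasts (173 and 217), 83 macrophages (37 and 46) and 9446 glia (4419 and 5027), in a clustering that did not use the members. The marker list of each class was highest in that class in both libraries, as with the 10 neuron markers, which summed to 13907 and 13979 CPM in neurons against 143 to 752 CPM in the other classes. No endothelial class was found, and 19 cells with smooth muscle genes stayed among the fibroblasts, as described with the fibroblast clusters. Vessels are textbook sites of the receptors. Cell depth differed between classes, with median UMIs of 29521 and 27429 in neurons, 12173 and 11187 in fibroblasts, 8667 and 9268 in macrophages, and 4916 and 4539 in glia. Nothing in the sources used here says that A and B are separate mice or cultures, so all p-values measure only the spread between these 2 libraries, which may be technical. Values below are given as A and B, levels are CPM, the UMIs of a gene summed over a class in a library and scaled to 1000000 UMIs in all, and SDs and tests use n = 2 libraries.

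The CGRP genes and Calcrl were highest in different classes, while Adm and Calcrl were highest in the same class. Calca and Calcb were highest in neurons, Adm, Calcrl and Ramp2 in fibroblasts, Ramp3 in neurons, and Ramp1 was low in every class as a whole, with macrophages and fibroblasts not told apart. Of the 7 members, 6 passed edgeR's quasi-likelihood test (adjusted p under 0.05) between neurons and glia, where 82.1% of the 11909 tested genes passed (42.7% as higher in neurons and 39.4% as lower), and 7 passed between neurons and fibroblasts, where 66.1% did. Between neurons and macrophages 4 passed (39.8% of genes), between fibroblasts and macrophages 3 (23.7%), between fibroblasts and glia 4 (53.7%) and between macrophages and glia 2 (29.7%). All 7 members passed the filter on low counts, some of them only through the class in which they are high, so these counts, and the p-values of sparse members such as Adm, describe the members and are not support for their pattern.

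**Figure D1:**
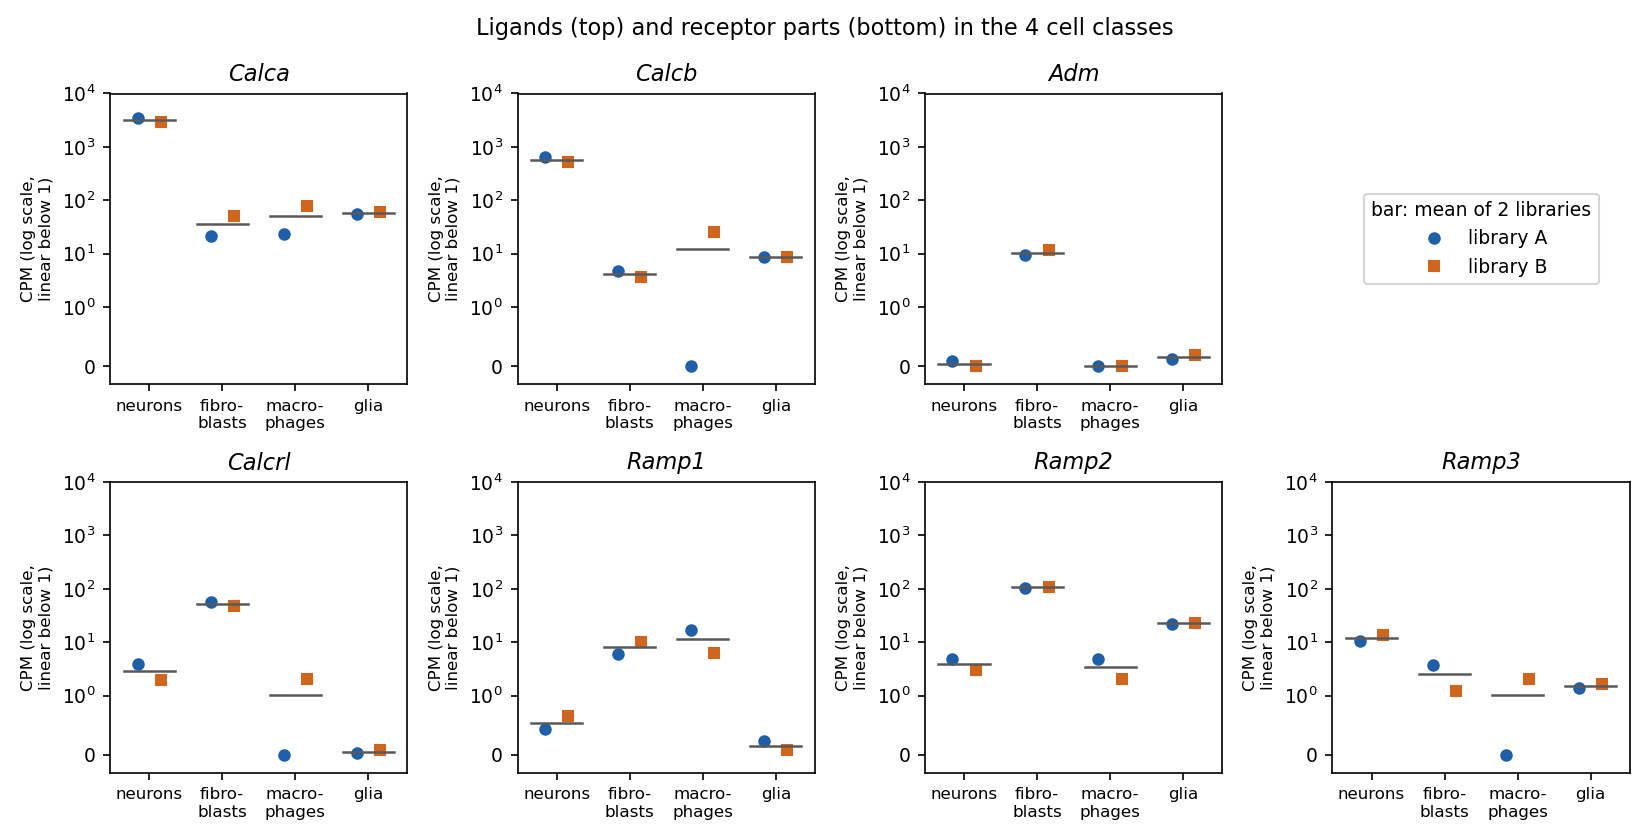
Level of each member (vertical axis, CPM on a log scale that is linear below 1) in neurons, fibroblasts, macrophages and glia, with a circle for library A, a square for library B and a bar for their mean. Calca and Calcb stand far above all other classes in neurons, Calcrl lies at 57.1 and 47.0 CPM in fibroblasts and under 4 CPM elsewhere, and Ramp2 is at 105 and 108 CPM in fibroblasts and 21.9 and 23.1 CPM in glia.

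Neurons held the CGRP genes. Calca was at 3437 and 2964 CPM in neurons, 21.7 and 49.9 CPM in fibroblasts, 23.8 and 79.2 CPM in macrophages and 54.4 and 60.7 CPM in glia. Calcb, the β-CGRP gene, was at 637 and 512 CPM in neurons, 4.72 and 3.71 CPM in fibroblasts, 0 and 12 UMIs in macrophages and 8.70 and 8.59 CPM in glia. The neuron libraries lay above every library of the other classes for both genes, with means of 3200 ± 335 CPM for Calca and 575 ± 88.4 CPM for Calcb (SD, n = 2 libraries). With a mitochondrial limit of 5%, which kept 280 of the 811 neurons, Calca fell to 2088 and 1441 CPM in neurons, while Calcb was at 752 and 483 CPM. The log2 fold change of neurons over glia was 6.10 for Calca (SE 0.10, adjusted p = 2.82e-30) and 6.35 for Calcb (SE 0.09, adjusted p = 7.51e-32), and both genes also passed for neurons over fibroblasts (6.36 and 7.00) and over macrophages (5.83 and 5.34). Calca outnumbered Calcb in neurons by 5.39 UMIs to 1 in A and 5.78 to 1 in B.

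The Calca message was concentrated in a minority of neurons. A neuron had a median of 10 Calca UMIs in A and 5 in B, while the highest cells had 972 and 1076. The neurons with at least 100 Calca UMIs, 116 cells in A and 81 in B, held 88.0 and 85.9% of the neuronal Calca UMIs. Calcb had a median of 6 and 4 UMIs per neuron and at most 162 and 153.

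Outside the neurons the levels of Calca and Calcb were a small percentage of the neuronal level. In glia Calca stood at 1.58 and 2.05% of its neuronal CPM and Calcb at 1.36 and 1.68%. A list of 12 other neuronal genes, Tubb3, Prph and Stmn2 among them, stood in glia at 0.550 to 5.70% in A (median 1.73%) and 0.482 to 3.50% in B (median 1.55%). Calca and Calcb thus lay inside the range of the list in glia in both libraries, with 4 list genes below each of them in A and 7 in B. In fibroblasts they also lay inside it, at 0.631 and 1.68% for Calca and 0.740 and 0.724% for Calcb. Calca UMIs were found in 80.3 and 79.4% of neurons, against 23.7 and 26.3% of fibroblasts, 24.3 and 39.1% of macrophages and 25.5 and 26.3% of glia. Whether any of these UMIs outside neurons come from expression in the cells themselves was not tested. Glia also held Calca and Calcb UMIs in nearly the neuronal ratio, 6.25 to 1 in A and 7.06 to 1 in B. Glia without a UMI of any list gene still held 53.8 and 68.3 CPM of Calca. After thinning each cell to 2000 UMIs, Calca remained in 55.3 and 50.4% of neurons, 2.34 and 3.29% of fibroblasts, 8.11 and 8.70% of macrophages and 11.3 and 12.5% of glia, the class with the fewest UMIs per cell. Each depth was a single random draw, and the gap between fibroblasts and glia varied with it. The mean shares were 4.28% of fibroblasts and 6.47% of glia at 1000 UMIs. At 5000 UMIs, which left out 5200 glia, they were 10.3 and 21.6%.

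Single cells carried part of the non-neuronal values. In library B, 1 fibroblast held 58 of the 121 fibroblast Calca UMIs and 1 macrophage held 18 of 38 Calca and 11 of 12 Calcb UMIs. Without these cells Calca was at 26.2 CPM in the fibroblasts and 44.8 CPM in the macrophages of B, and Calcb at 2.24 CPM in its macrophages. Fibroblasts, macrophages and glia did not pass the test against one another for either gene (adjusted p of 0.11 to 0.64), but Calca passed as lower in fibroblasts than in glia when the 5% of cells with the highest doublet scores were left out (log2 fold change -0.97, adjusted p = 6.09e-08) and in 5 other alternatives. Calcb passed as lower in fibroblasts than in glia in 3 alternatives (adjusted p of 0.012 to 0.022), and Calca as lower in fibroblasts than in macrophages in 2 (0.028 and 0.031).

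**Figure D2:**
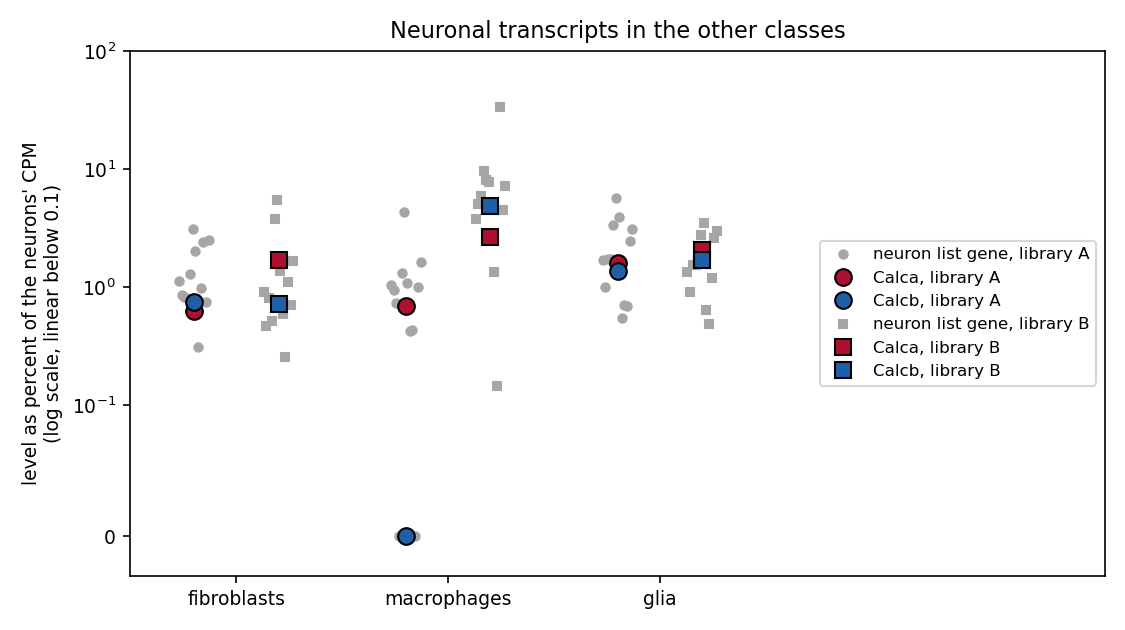
Level of Calca (red), Calcb (blue) and the 12 genes of the neuron list (grey) in fibroblasts, macrophages and glia as a percent of their CPM in neurons, on a log scale that is linear below 0.1, with circles for library A and squares for library B. In glia, Calca at 1.58 and 2.05% and Calcb at 1.36 and 1.68% sit among the list genes.

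Adm, which codes for adrenomedullin, was found in fibroblasts. It had 1 and 0 UMIs in neurons, 20 and 28 UMIs in fibroblasts (9.43 and 11.5 CPM), none in macrophages and 3 and 5 UMIs in glia. The fibroblast libraries did not overlap those of any other class, and 17 and 19 fibroblasts had at least 1 Adm UMI. Adm was 68.3-fold higher in fibroblasts than in glia (exact 95% interval of the count ratio 32.0 to 167, counting error only). Against the macrophages it was at least 3.17-fold higher (floor of 3 counts over both libraries), since 0 of 83 macrophages had a UMI, which allows a share of cells with a UMI, not of cells expressing the gene, of up to 3.61%.

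Calcrl, the receptor subunit that CGRP and adrenomedullin receptors share, was also a fibroblast gene in these cells. It was at 3.87 and 1.98 CPM in neurons, 57.1 and 47.0 CPM in fibroblasts, 0 and 2.08 CPM in macrophages and 1 and 2 UMIs in all glia. Fibroblasts were above every other class in both libraries. The log2 fold change of neurons over fibroblasts was -4.21 (SE 0.21, adjusted p = 1.37e-17), and the ratio of fibroblasts over glia was 891 (exact 95% interval 301 to 4354, adjusted p = 2.62e-22). Neurons were above glia too, by a ratio of 52.4 (17.1 to 261). A Calcrl UMI was found in 8.70 and 3.74% of neurons, 42.8 and 34.6% of fibroblasts, and 3 of 9446 glia. The 52 neurons with a Calcrl UMI had at most 3. Thinned to 2000 UMIs per cell, 12.9 and 9.39% of fibroblasts and 1 of 769 neurons kept one.

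Ramp2, the partner of CALCRL in the main adrenomedullin receptor, was the most abundant receptor part. It was at 4.82 and 3.08 CPM in neurons, 105 and 108 CPM in fibroblasts, 4.75 and 2.08 CPM in macrophages and 21.9 and 23.1 CPM in glia. It was higher in fibroblasts than in glia (log2 fold change 2.63, SE 0.10, adjusted p = 3.70e-20) and lower in neurons than in glia (-2.17, SE 0.15, adjusted p = 1.19e-14). Macrophages were lower than glia as well (-2.37, SE 0.65, adjusted p = 0.0050) on 3 UMIs, a call lost with a mitochondrial limit of 5% (adjusted p = 0.19). Neurons and macrophages were not told apart (0.20, SE 0.87, adjusted p = 0.88). Ramp2 is thus the only member with more than 3 CPM in glia apart from the CGRP genes. None of the glia that carried it, 491 cells in A and 544 in B, had a Calcrl UMI. Only 3 of all 9446 glia had one, so few joint cells could be found.

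Ramp1, the partner that makes CALCRL a CGRP receptor, was the sparsest of the Ramp genes. It had 5 and 6 UMIs in neurons (0.430 and 0.661 CPM), 13 and 24 in fibroblasts (6.13 and 9.90 CPM), 7 and 3 in macrophages (16.6 and 6.25 CPM) and 6 and 2 in glia. Fibroblasts and macrophages overlapped (log2 fold change -0.45, SE 0.67, adjusted p = 0.71), and both were above glia, fibroblasts by a ratio of 52.6 (exact 95% interval 24.1 to 131) and macrophages by 71.8 (25.5 to 209). Fibroblast markers summed to 25440 and 22836 CPM in fibroblasts and to 1906 and 533 CPM in macrophages, and their part in the macrophage Ramp1 was not tested. Neurons passed above glia (adjusted p = 0.024) on 11 and 8 UMIs, but not without the filter on low counts (adjusted p = 0.076), with a mitochondrial limit of 5% (0.44) or without TMM factors (0.052).

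Ramp3, the other partner for adrenomedullin receptors, was highest in neurons. It was at 10.7 and 13.7 CPM in neurons, 3.77 and 1.24 CPM in fibroblasts, 0 and 2.08 CPM in macrophages and 1.38 and 1.63 CPM in glia. Neurons passed over fibroblasts (log2 fold change 2.24, SE 0.40, adjusted p = 9.84e-06) and over glia (3.30, SE 0.20, adjusted p = 5.44e-16). The call over macrophages (3.36, SE 1.02, adjusted p = 0.0084) rests on 1 macrophage UMI and was lost with DESeq2 (adjusted p = 0.070) and with at least 500 genes per cell (adjusted p = 0.52). The glial level was 12.8 and 12.0% of the neuronal one, above all 12 genes of the neuron list.

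A complete receptor needs CALCRL and a RAMP in the same cell, and fibroblasts were the class in which both were captured together. Of 149 fibroblasts with Calcrl, 97 (65.1%) also had a Ramp UMI: 90 had Ramp2, 10 had Ramp1 and 6 had Ramp3. Ramp2 was found in 58.1 and 62.7% of the fibroblasts with Calcrl and in 41.4 and 51.4% of those without. The fibroblasts with Calcrl were slightly deeper, with median UMIs of 12805 and 11500 against 11256 and 11109, and what depth adds to the joint detection was not tested. Within the fibroblast clusters described below the gap was smaller. In cluster 0, Ramp2 was found in 70 of 87 cells with Calcrl and in 143 of all 184 cells. In cluster 1 it was found in 9 of 30 with Calcrl and in 32 of all 111. What the mix of clusters adds to the joint detection was not tested either. Thinned to 2000 UMIs per cell, 1 of 22 and 4 of 20 fibroblasts with Calcrl (4.55 and 20%) kept Ramp2, against 14.1 and 16.1% of those without Calcrl. Thinned to 5000 UMIs, the shares were 47.2 and 40.5% with Calcrl and 31.7 and 38.9% without. The order of the shares was turned at 2000 UMIs in A only. At 1000 UMIs it was turned in B only (0 of 13 cells with Calcrl, against 9.85% without). Both turns rest on few cells. In the other classes the parts were mostly apart. Of 52 neurons with Calcrl, 5 had a Ramp UMI, while 155 neurons had a Ramp without Calcrl. Of 3 glial cells with Calcrl, 0 had a Ramp, and 1099 glia had a Ramp without Calcrl. At these depths a missing UMI does not show that a part was absent.

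The fibroblasts were clustered again without the members, a step added after the class values were seen, so it is given with no test. Cluster 0 (77 and 107 cells, led by Trf, Cdkn2a and Hopx) had the most Ramp2 among the larger clusters, 192 and 167 CPM, and 85.0 and 54.9 CPM of Calcrl. Cluster 1 (56 and 55 cells, led by the matrix protease gene Mmp3 and the prostaglandin synthase gene Ptgs2) had 30.3 and 59.9 CPM of Ramp2 and 36.0 and 38.9 CPM of Calcrl. Ramp1 was concentrated in the smallest one. Cluster 4, with 9 and 10 cells and the smooth muscle genes Tagln and Lmod1 and the pericyte gene Rgs5 among its 10 leading genes, held 7 and 8 Ramp1 UMIs, or 222 and 224 CPM, against 0 to 8.58 CPM in the other clusters. It also had 159 and 196 CPM of Calcrl, and 3 of its 19 cells had both UMIs, while its Ramp2 came from 6 UMIs of 1 cell. These were 15 of the 37 fibroblast Ramp1 UMIs. Most fibroblast markers were rare in these 19 cells, with Dcn in 1, Col1a1 in 3 and Lum and Pdgfra in none. Mgp was found in 17. Of the smooth muscle and pericyte genes, Acta2 was found in 14, Pdgfrb in 12, Myh11 in 7, Rgs5 in 6 and Cspg4 in 2. A few of the 19 cells held endothelial genes, with Egfl7 in 4 and Pecam1, Cldn5 and Emcn in 2 each. Cdh5, Kdr and Flt1 were found in 1 each and Tek in none. Cldn5 was at 31.7 and 420 CPM in cluster 4, on 16 UMIs. Without cluster 4 the fibroblasts were at 2.87 and 6.70 CPM of Ramp1 and 55.5 and 44.8 CPM of Calcrl, and the same 26 class calls passed. The cluster is so small that 3 counts amount to 95.2 CPM in A and 84.1 CPM in B. In cluster 2, glial genes such as Fabp7 were among the leading ones. Of 8 endothelial genes, Pecam1, Cldn5, Kdr, Flt1 and Tek were each found in 1 to 3 of the 149 fibroblasts with Calcrl. Emcn was found in 9 (6.04%, against 7.05% of the other 241), Egfl7 in 33 (22.1%, against 14.9%) and Cdh5 in 50 (33.6% in both).

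**Figure D3:**
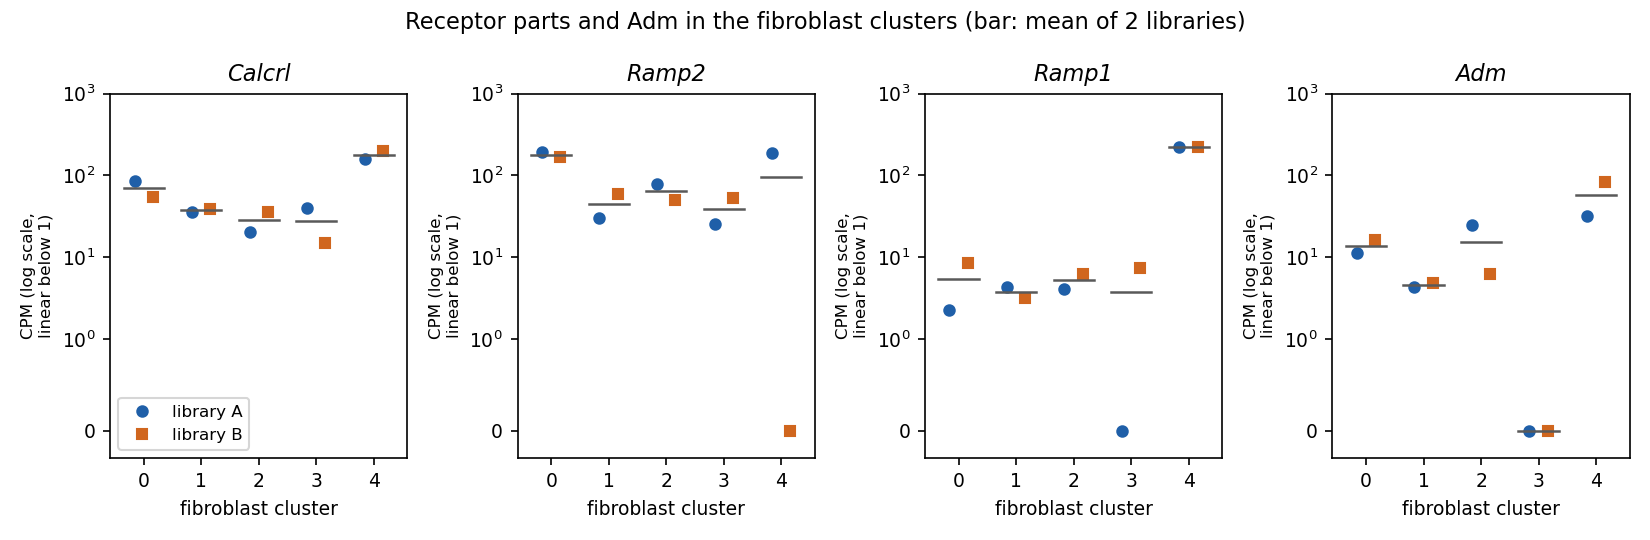
Levels of Calcrl, Ramp2, Ramp1 and Adm (vertical axis, CPM on a log scale that is linear below 1) in the 5 fibroblast clusters, with a circle for library A, a square for library B and a bar for their mean. Ramp1 stands at 222 and 224 CPM in cluster 4, on 7 and 8 UMIs, and at 8.58 CPM or less in the others.

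Among neurons, the clusters rich in Calca also had Calcb, and Calcb was high in further clusters. Neurons were clustered again without the members into 10 clusters, and each was compared with the mean of the others. Clusters and tests come from the same cells, so the p-values ask only whether the libraries repeat a difference. Of 40 values (Calca, Calcb, Ramp2 and Ramp3 in 10 clusters; the other members were too sparse to test) 23 passed. Of the 9109 tested genes, 14.7, 28.5, 18.8, 32.9, 16.9, 2.7, 13.5, 17.1, 15.1 and 20.1% passed in clusters 0 to 9. Among the clusters of deep cells, Calca was highest in cluster 1 (80 and 63 cells), at 9205 and 8272 CPM, and in cluster 4 (44 and 34 cells), at 7726 and 8225 CPM. Both clusters had the peptidergic gene Tac1, for substance P (431 and 274 CPM in cluster 1, 416 and 405 CPM in cluster 4). Cluster 3 (48 and 34 cells), led by the itch receptor gene Mrgpra3, followed at 3541 and 3441 CPM. Clusters 1, 4 and 3 held 53.1, 23.7 and 14.5% of the neuronal Calca UMIs. The log2 fold changes were 3.24 (SE 0.14) for cluster 1, 3.04 (SE 0.15) for cluster 4 and 1.81 (SE 0.16) for cluster 3. Calcb passed as higher in clusters 1, 4 and 3 too, with log2 fold changes of 1.92, 0.87 and 0.93. Cluster 1 held 36.2% of the neuronal Calcb UMIs.

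Calcb reached about as high a level as in cluster 1 in neurons with less Calca than cluster 1. In cluster 7 (24 and 16 cells, led by Slc14a1 and Rassf9) Calcb was at 1256 and 1075 CPM and Calca at 455 and 229 CPM. In cluster 8 (18 and 16 cells), with the genes Lpar3 and Mrgprd of non-peptidergic nociceptors among its first 10, Calcb was at 1310 and 787 CPM and Calca at 838 and 666 CPM. In both clusters Calcb outnumbered Calca in each library, by 2.76 and 4.69 UMIs to 1 in cluster 7 and by 1.56 and 1.18 to 1 in cluster 8, whereas cluster 1 had 8.15 and 8.13 Calca UMIs for each Calcb UMI. Calcb passed as higher in clusters 7 (log2 fold change 2.04, SE 0.10, adjusted p = 6.18e-29) and 8 (1.89, SE 0.11, adjusted p = 8.54e-26), and Calca passed as lower (-1.93, SE 0.24, adjusted p = 1.34e-09, and -0.67, SE 0.21, adjusted p = 0.021). The call for Calca in cluster 8 was lost with DESeq2 (adjusted p = 0.47).

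Calca was lowest in cluster 2 (47 and 46 cells, led by Penk and Crh), which had 80.8 and 68.5 CPM of Ntrk3, a receptor gene of large mechanosensory neurons. There Calca was at 37.6 and 122 CPM and Calcb at 62.7 and 30.0 CPM (log2 fold changes of -4.28 and -3.10). A single cell held 111 of the 143 Calca UMIs of cluster 2 in B, and without the highest cell of each library Calca was at 18.3 and 28.4 CPM. Calcb was as low in cluster 9, at 30.2 and 59.7 CPM. Cluster 0 (91 and 83 cells), led by Anxa1 and Flnc and with the injury gene Sprr1a among its first 10, had 452 and 132 CPM of Calca and 379 and 284 CPM of Calcb. Clusters 5 and 9 had shallow cells, with median UMIs of 1650 and 1105 and of 4330 and 5023, and glial genes led cluster 9. In cluster 5 Calca was at 3779 and 10813 CPM, but 1 cell held 204 of 412 UMIs in A and 1 held 605 of 816 in B, and without them it was at 1948 and 3344 CPM. Leaving both clusters out moved neuronal Calca to 3450 and 2923 CPM. Counted per cell, 529 of 811 neurons had UMIs of both genes, 119 of Calca alone, 48 of Calcb alone and 115 of neither.

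**Figure D4:**
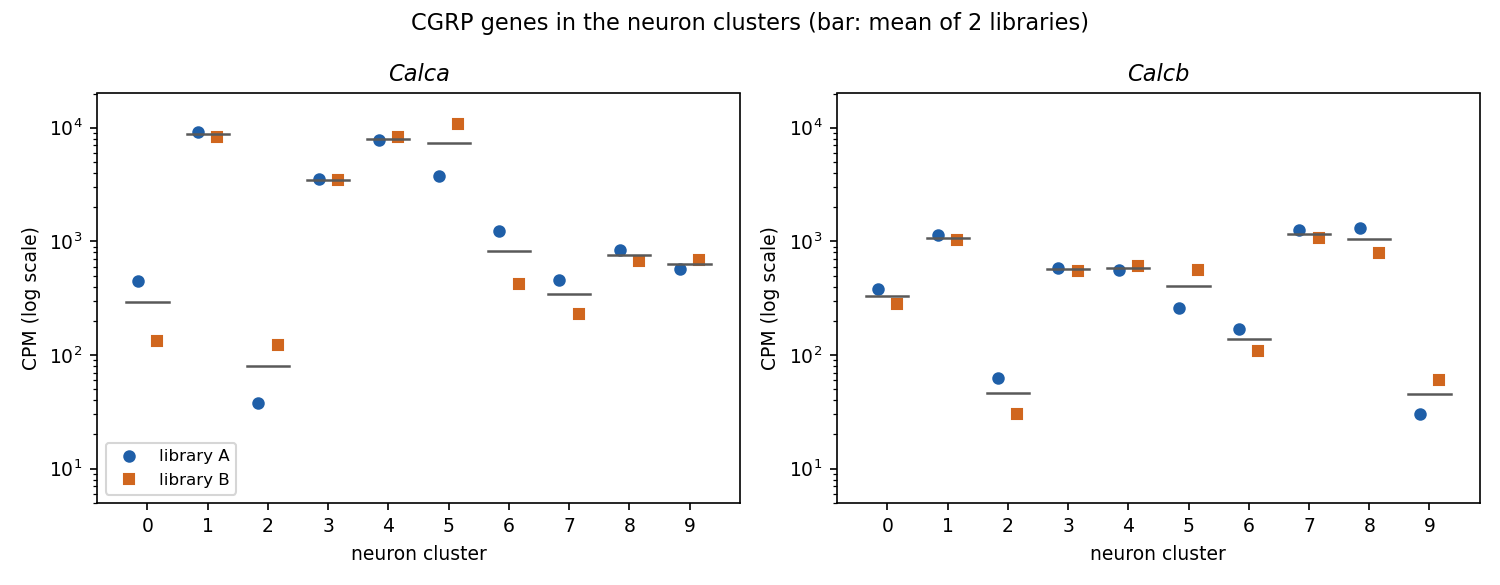
Calca and Calcb (vertical axis, CPM on a log scale) in the 10 neuron clusters, with a circle for library A, a square for library B and a bar for their mean. Clusters 1 and 4 hold 7726 to 9205 CPM of Calca, while Calcb is about as high in clusters 7 and 8 (787 to 1310 CPM) as in cluster 1 (1129 and 1017 CPM).

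Ramp3 had its highest level in a cluster with less Calca. Cluster 6 (36 and 31 cells) had 80.3 and 92.0 CPM of Ramp3 (log2 fold change 5.87, SE 0.36, adjusted p = 2.61e-23), and its 128 UMIs were 51.4% of those in neurons. Clusters 1 (10.7 and 21.7 CPM) and 4 (14.5 and 24.3 CPM) also passed as higher. In cluster 6, 19 of 67 cells had Ramp3. A single cell held 42 of its 69 Ramp3 UMIs in A, and another held 30 of 59 in B. The next highest cells had 7 and 8. The highest cells held 33.6 and 24.2% of the Ramp3 UMIs of all neurons in A and B. The cold receptor gene Trpm8 was among the leading genes of cluster 6, and 7 of 19 neurons with Trpm8 had Ramp3 (2 of 10 in A and 5 of 9 in B), against 75 of 792 without it. Within cluster 6, which held 14 of the 19 cells with Trpm8, Ramp3 was found in 5 of 14 with Trpm8 and 14 of 53 without. Macrophage genes also led this cluster, but Lyz2 was found in 5 of its cells, of which 2 had Ramp3. Without cluster 6, neurons had 5.20 and 7.70 CPM of Ramp3, still above the glia.

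Among glia, Ramp2 differed between clusters. The glia were clustered again without the members into 5 clusters, and Calca, Calcb, Ramp2 and Ramp3 could be tested, of whose 20 values 11 passed. Of the 10237 tested genes, 49.7, 41.6, 44.1, 33.2 and 34.5% passed in clusters 0 to 4. Ramp2 was at 38.0 and 44.0 CPM in cluster 0 (1704 and 1912 cells), which was led by Ccnd2 and by Apoe, a gene of satellite glia. It was at 7.11 and 6.87 CPM in cluster 1 (1023 and 1255 cells), led by Tgfbi, Igfbp5 and Hmga2. Clusters 2 and 3, led by histone genes and by mitosis genes such as Cenpf and Ccnb1, lay between, with Ramp2 at 19.5 and 20 CPM and at 24.0 and 21.6 CPM. Cluster 4 (382 and 491 cells), led by Fxyd6 and Hist1h1b and with the cell division gene Mki67 among its first 10, had the least, 4.32 and 3.40 CPM. Ramp2 passed in all 5 clusters, with log2 fold changes of 1.93 (SE 0.10), -1.21 (SE 0.18), 0.63 (SE 0.13), 0.88 (SE 0.15) and -2.24 (SE 0.23) from cluster 0 to cluster 4, and no call was lost in any alternative run with the same clusters. Clusters 0 and 1 had like depths, with median UMIs of 4306 and 3979 in cluster 0 and 4101 and 3854 in cluster 1.

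**Figure D5:**
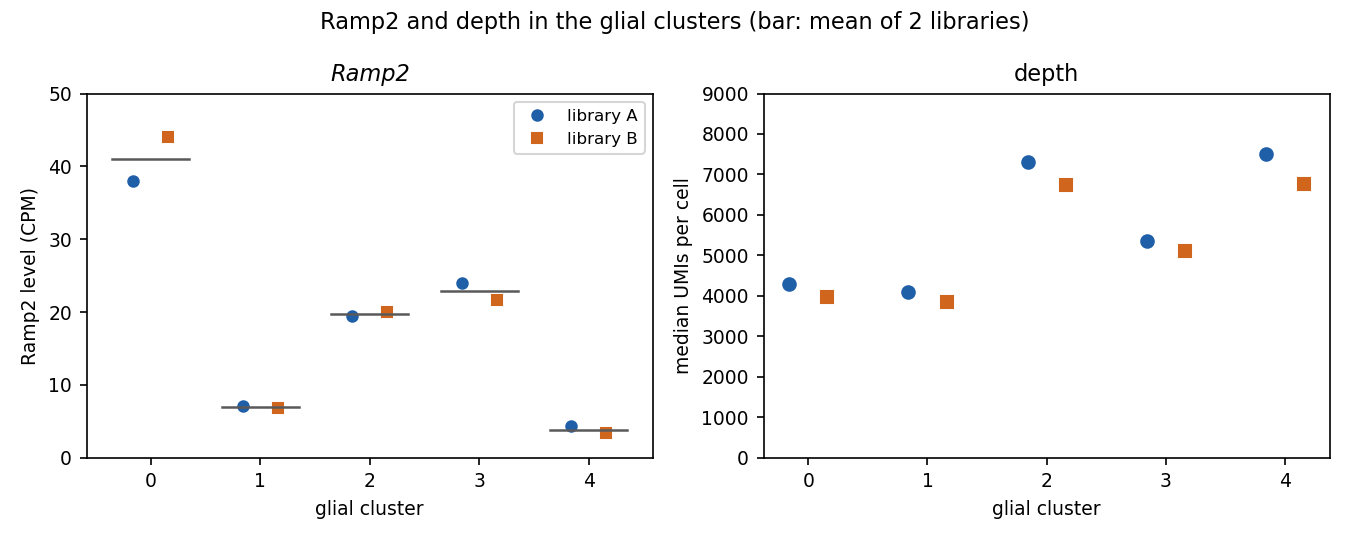
Ramp2 (left, CPM) and the median number of UMIs per cell (right) in the 5 glial clusters, with a circle for library A, a square for library B and, on the left, a bar for their mean. Ramp2 is at 38.0 and 44.0 CPM in cluster 0 and at 7.11 and 6.87 CPM in cluster 1, which have nearly the same depth.

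Calca differed less than Ramp2 among the glial clusters. It passed as higher in clusters 0 (60.8 and 70.2 CPM, log2 fold change 0.29) and 1 (64.7 and 75.0 CPM, 0.47) and as lower in clusters 2 (49.7 and 47.3 CPM, -0.22) and 4 (35.8 and 46.5 CPM, -0.43). Clusters 2 and 4 had the deepest cells, with median UMIs of 7299 and 6733 and of 7495 and 6774. The call in cluster 2 was lost with DESeq2 (adjusted p = 0.15). The share of cells with a Calca UMI stayed between 23.6 and 28.4% in all 5 clusters and both libraries. The part of depth in these differences was not tested.

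Other genes of the pathway were counted from lists. The ligand and receptor list held 6 genes, of which 3 could be tested. Adm2, the gene of the related peptide intermedin, was at 7.91 and 8.70 CPM in neurons, 1.42 and 0.825 CPM in fibroblasts, 0 in macrophages and 0.0394 and 0.114 CPM in glia, and it passed for neurons over glia (log2 fold change 6.82, SE 0.39, adjusted p = 1.48e-16). Ackr3, a scavenger receptor for adrenomedullin, was lower in neurons than in glia (-2.09, SE 0.28). With TMM scaling it passed as higher in fibroblasts than in glia (0.94, SE 0.29). It had 0.946 and 1.65 CPM in neurons, 12.7 and 7.42 CPM in fibroblasts and 5.91 and 7.53 CPM in glia. In B, the fibroblast CPM of Ackr3 was thus not above the glial one. Crcp, the receptor component protein, was at 45.8 and 46.1 CPM in neurons and 16.5 and 15.2 CPM in glia. The calcitonin receptor gene Calcr and the amylin gene Iapp had no UMI in any class.

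The machinery that cuts and stores neuropeptides was higher in neurons, the class that held the CGRP genes. All 10 genes of peptide processing and granules were higher in neurons than in glia (42.7% of all tested genes were), with a median log2 fold change of 5.21 against 0.04 over all tested genes. Among the neuron clusters the list did not follow Calca throughout. Its median log2 fold change was 0.33 in cluster 1, 0.59 in cluster 4 and -0.11 in cluster 3, all rich in Calca. In cluster 7, with little Calca, it was 0.50. Scg2, a granule protein, was at 346 and 325 CPM in neurons and 4.68 and 4.48 CPM in glia, and Cpe, which trims peptide precursors, at 486 and 508 CPM in neurons and 145 and 155 CPM in glia. Pam, which puts the amide on the end of CGRP and adrenomedullin, differed less, with 189 and 182 CPM in neurons and 140 and 142 CPM in glia (log2 fold change 0.70, SE 0.06). In fibroblasts, the class with Adm, 1 of the 10 genes was higher than in glia (Cpe), 3 were lower and 6 did not pass.

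Of the enzymes that break the peptides down, 2 of 4 were higher and 2 lower in neurons than in glia, near the 42.7% higher and 39.4% lower over all tested genes. Mme, the membrane protease neprilysin, was among the lower ones, at 0.258 and 0.441 CPM in neurons and 7.17 and 6.73 CPM in glia. Of 18 tested genes of Gs and cyclic AMP signalling, 16 were higher and 2 lower in neurons than in glia (42.7 and 39.4% of all tested genes), and 5 were higher and 5 lower in fibroblasts than in glia (27.3 and 26.4% of all tested genes). Gnas, which codes for Gs itself, was at 1450 and 1430 CPM in neurons, 1407 and 1452 CPM in fibroblasts and 1252 and 1263 CPM in glia. Adm is known to rise under low oxygen, and 8 of 10 hypoxia genes were higher and 1 (Ndrg1) lower in fibroblasts than in glia. Ldha, for lactate dehydrogenase, was at 903 and 849 CPM in fibroblasts and 324 and 337 CPM in glia. The same list had 8 genes higher and 1 lower in neurons than in glia, and 9 higher in macrophages than in glia (13.7% of all tested genes were). Neurons had 1 Adm UMI and macrophages none. Whether oxygen or these genes bear on Adm in this culture was not tested.

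The genes whose levels most resembled the members were sought over 34 sums (10 neuron clusters, 5 glial clusters, fibroblasts and macrophages in 2 libraries), which share libraries and depth, so the correlations are a description. Calca was followed most closely by Nmb (Pearson r = 0.947), Camk2g, Scg2, Mt3 and Rit2, and Calcb by Cds2 (0.954), Kcnb2, Pirt, Arrb1 and Napg. Calcrl resembled Creb3l1 most (0.835), then 4833422C13Rik, Scml4, Ebf2 and Agt. Ramp2 resembled Myl9 (0.891), Col11a1, Ccnd2, Srpr and Slc1a5. Over the 811 neurons taken as cells, Calca went with Fstl1 (mean r over the libraries 0.746), Tmem100, S100a13 and Nap1l5, and Calcb with Calca (0.578), Pirt, Fam89a, Fkbp1b and Fstl1. For Ramp3 in neurons no gene passed an r of 0.355 (Dcn, then Klhl1, Igfbp5, Scx and Npy1r). For the members in glia no gene passed 0.158, the value of Apoe with Ramp2, which was followed by Ptprz1, Cst3, Fbln5 and Ptn. The values for Calca in glia were at most 0.069, led by Gm42418, Stmn3, Trappc4, Pik3ip1 and Rtn1, and are too weak in such sparse counts to be read.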

How the data were processed

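Cultured DRG cells were measured in 2 libraries. The deposited values are unscaled UMI counts of each gene in each barcode. Cell Ranger produced them (3.0.2 by the submitters' processing notes, 3.1.0 by the matrix header) with mm10 and Ensembl 93. Library A held 5175 barcodes with 40355401 UMIs and library B 5773 with 38945848. The libraries shared 8 barcode sequences. Cells with at least 200 genes and at most 10% mitochondrial UMIs were clustered with Seurat 5.3.0 (2000 variable genes, 20 dimensions, resolution 0.18, with 0.5 for neurons and fibroblasts clustered again), with the members and the pathway lists held out. Class names came from marker lists. Scrublet (scanpy 1.11.5) called 2 and 3 doublets, too few to have worked, so doublets were not removed.

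Counts were summed per library and class or cluster and fitted in edgeR 4.0.16 with its quasi-likelihood test, after filterByExpr and TMM scaling, and the replicate block was the library, since all classes of a library come from the same capture. The Benjamini-Hochberg adjustment ran over all tested genes that clustering did not use, at a threshold of 0.05. The class fit had 3 residual degrees of freedom. The edgeR step was tested on simulated data. Intervals are exact and cover counting error only. Shares were also taken after a single random draw of 2000 UMIs per cell, which left out 229 cells. Alternatives were DESeq2 1.42.0 and other scalings, filters, quality limits, resolutions and thinning depths. The fibroblast clusters, leaving out single cells and leaving out clusters in doubt were added after seeing the data. The members and lists were chosen with earlier results of these data known. All 7 members are named, with up to 3 genes per list by summed level, and the 5 genes most like a member at 20 CPM or more (over sums) or in at least 10% of the cells of a class (over cells). Genes of the lists that bear directly on the ligands were named beside these after their values were seen. Some genes that these rules name are not reported here. GENCODE M21 gave positions and sequences. Figures were drawn with matplotlib 3.10.9.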

Additional observations from a re-analysis of the deposited data

How the results depend on the processing

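With 2 libraries the tests rest on few degrees of freedom, sparse members (Adm, Ramp1, Calcrl outside fibroblasts) rest on single UMIs, and doublets and free RNA remain in the counts. The count of 26 members by class pairs that passed became 25 to 28 under the alternatives, with 26 for the fit with no replicate block. The 23 calls in neuron clusters became 20 to 24 (21 with no replicate block), and the 11 in glial clusters 8 to 12 (11 with no replicate block). All calls kept their direction in these fits, but 3 of the class calls, 5 of the neuron calls and 3 of the glial calls failed the test in at least 1 of them. Ramp3 in macrophages over glia, which did not pass (log2 fold change -0.06), turned to 2.61 with at least 500 genes per cell (adjusted p = 0.015), on few UMIs. With either library alone there is no test. In neuron cluster 6, Calca over the other clusters was -1.47 to 0.10 with a library left out, the positive value being that of A alone, against -0.58 with both. The highest class was the same for all 7 members under all other settings for levels, and for 6 to 7 with a library left out, as Ramp1 was highest in fibroblasts in B. For shares it was the same for 6 members at 1000 UMIs per cell, 6 at 5000 and 6 without thinning, the exception again being Ramp1. Ramp2 was found in 12.3% of the fibroblasts with Calcrl at 2000 UMIs per cell (4.55 to 20% by library), 43.9% at 5000 and 60.4% without thinning. With no TMM factor the median over all genes for neurons over glia moved by more than 0.1, to -0.26, and the share of calls that were higher to 40%, against 52.0%. For fibroblasts over glia that share was 26.3%, against 50.9%, and for macrophages over glia 23.0%, against 46.2%. DESeq2 gave 40.6% for neurons over macrophages, against 52.9%.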
